A study of Mus musculus with 6 samples.

Results

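Of the genes named as keratins, 5 were in the deposited table of the neonatal right ventricle (RV), Krt8, Krt18, Krt80, Krt7 and Krt222, out of 617 genes listed. They were taken as every row whose gene name is Krt followed by a number. After pulmonary artery banding (PAB), the simple-epithelial partners Krt8 and Krt18 were 2.29-fold and 4.58-fold higher than after a sham operation, and Krt80 was 4.20-fold higher. Krt7 was 2.17-fold lower and Krt222 2.10-fold lower, and these decreases did not pass the test under another scaling of the libraries, described with the fold changes.

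The animals were wild-type C57/BL6J mice that had surgery on postnatal day 1 and gave RV tissue on postnatal day 7. In the PAB group a band narrowed the pulmonary artery so that the RV pumped against a raised pressure, and the sham group had the operation without a band. RNA was sequenced in 3 sham and 3 PAB libraries, and nothing says whether a library is 1 animal or pooled tissue, so the p-values measure the spread between these libraries. The tissue was whole RV, in which a change in the number of cells of a type and a change in RNA per cell cannot be told apart.

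Keratins are intermediate filament proteins. A type I keratin, such as KRT18, pairs with a type II keratin, such as KRT8, KRT7 or KRT80, and neither kind forms a filament alone. The filaments are anchored at desmosomes and hemidesmosomes, carry mechanical load and help cells survive stress. KRT8 and KRT18 are the main pair of simple, single-layered epithelia and are found early in the embryo, and the heart's outer mesothelial layer, the epicardium, makes them too. The intermediate filament protein of working cardiomyocytes is desmin, encoded by Des.

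The values, here called normalized reads, are gene counts scaled by the authors with a single size factor for each library. These factors, from 0.939 (PAB replicate 1) to 1.07 (sham replicate 2), were close to each other, and all values above 0 were within 0.1 of a whole multiple of 1 step. A step was taken as 1 read, so read numbers given here are inferred from the values. The listed genes held between 301448 and 659521 reads per library, and the total depth is unknown because the table holds a selection of genes. Every listed gene had been selected by the authors for a difference between these same libraries, so a p-value over the table describes a difference against the spread and is no independent test. The table is also a cut on fold change, since the smallest absolute log2 fold change fitted here was 0.92, so genes that changed less are outside it. The rows are sorted by the authors' p-value and the last row breaks off after its values, so the table used here may be incomplete, and a gene outside it may have missed the selection or have stood further down. GENCODE names 53 protein-coding genes Krt with a number, 4 of them with a letter after it, of which 48 are not in the table and were not analysed here. PAB replicate 1 gave the highest value of 252 of the 290 genes that were higher in PAB (86.9%), and the lowest value of 192 of the 327 genes that were lower.

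The 5 genes lie in the 2 keratin clusters of the mouse genome (GRCm38). Krt18 (ENSMUSG00000023043, chr15:102028180-102032027, plus strand, 7 exons) and Krt8 (ENSMUSG00000049382, chr15:101996698-102004482, minus strand, 9 exons) stand 23697 bases apart, head to head, with no protein-coding gene between them. Krt80 (ENSMUSG00000037185, chr15:101347444-101370162, minus strand, 9 exons) and Krt7 (ENSMUSG00000023039, chr15:101411043-101430313, plus strand, 9 exons) lie at the other end of the type II cluster, also head to head. Krt18 is the type I gene that sits beside the type II genes, whereas Krt222 (ENSMUSG00000035849, chr11:99232761-99244085, minus strand, 6 exons) lies in the type I cluster. Krt222 encodes a short keratin-like protein, with 762 coding bases against 1269 in Krt18 and 1470 in Krt8. The stretch from Krt80 to Krt18 spans 684584 bases and 29 protein-coding genes, 26 of them keratins, and the 4 of these that are in the table are Krt80, Krt7, Krt8 and Krt18.

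RefSeq (GRCm38.p6) gave promoter windows, 250 bases before to 50 bases after the start, for 3 of the 5 keratins. They are shown because Krt8 and Krt18 were higher in PAB and Krt7, of the same cluster, was lower. The bases up to the next exon of an annotated coding transcript are printed 5′ to 3′ on the gene's strand, and capitals mark GGGCGG on either strand, the letters of an SP1 site. The stretches of Krt18 and Krt8 end at the annotated gene start, whereas that of Krt7 lies inside the annotated gene, in an intron of a longer coding transcript, and overlaps an exon of a noncoding one.
Krt18, chr15:102027966-102028179, plus strand: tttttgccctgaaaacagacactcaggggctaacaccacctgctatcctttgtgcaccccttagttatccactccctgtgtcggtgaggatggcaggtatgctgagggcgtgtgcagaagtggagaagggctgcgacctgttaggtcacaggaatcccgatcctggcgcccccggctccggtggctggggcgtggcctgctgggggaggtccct
Krt8, chr15:102004483-102004592, minus strand: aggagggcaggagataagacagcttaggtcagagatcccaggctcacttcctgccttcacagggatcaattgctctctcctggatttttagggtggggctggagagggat
Krt7, chr15:101412153-101412401, plus strand: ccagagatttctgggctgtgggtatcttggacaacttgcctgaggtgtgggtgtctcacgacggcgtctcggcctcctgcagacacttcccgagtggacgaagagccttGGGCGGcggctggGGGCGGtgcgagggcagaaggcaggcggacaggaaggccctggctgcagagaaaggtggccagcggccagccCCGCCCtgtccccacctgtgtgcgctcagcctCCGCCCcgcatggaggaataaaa

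The Krt7 window held 4 matches to GGGCGG, at -141, -128, -56 and -24 from the RefSeq start, and the Krt8 and Krt18 windows held 0. A match of these letters was found in 35.7% of all 32851 mouse promoters. TATAAA, the TATA box, overlapped itself on both strands at -3 and -1 in the Krt8 window, outside the bases printed, and 13.6% of all promoters held it. None of the 3 windows held TGAGTCA or TGACTCA (AP-1, in 5.20% of all promoters), CCGGAA (ETS, 14.9%) or CATTCC (M-CAT, the element bound by TEAD factors, 14.7%). The windows were rich in G and C, with 61.3% in Krt18, 58.0% in Krt8 and 66.3% in Krt7, against a median of 52.7% over all promoters. These are matches of letters, and no binding was measured.

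Krt18, the type I partner, had 233.6, 161.8 and 188.8 normalized reads in sham replicates 1 to 3 and 1166, 723.0 and 787.8 in PAB replicates 1 to 3. The lowest PAB library was thus well above the highest sham library. The mean was 194.7 ± 36.3 in sham and 892.3 ± 239 in PAB (SD, n = 3), a log2 fold change of 2.17 ± 0.27 (SE) with an adjusted p of 0.000214 from limma over the 617 listed genes. Krt18 ranked 63 of the 290 higher genes by fold change.

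Krt8, the type II partner, had 151.3, 147.8 and 145.8 normalized reads in sham and 371.7, 334.2 and 311.9 in PAB. The sham libraries were nearly level, and every PAB library stood above all of them. Their SD of 2.81 around 148.3 is smaller than the 12.0 that counting alone gives at the inferred read numbers, so the closeness of these 3 values says little about the spread between libraries. In PAB the mean was 339.3 ± 30.2, and the log2 fold change was 1.19 ± 0.23 (SE) with an adjusted p of 0.00143 in limma. Krt8 ranked 207 of 290, in the lower part of the higher genes. A processed pseudogene on chromosome 7, Krt8-ps, shares 941 bases with Krt8 at 98.6% identity and is not in the table. How reads were divided between the copies was not tested, so the Krt8 values are uncertain to that extent.

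Krt80, a type II keratin known from differentiating and many other epithelia, had 40.7, 38.3 and 54.5 normalized reads in sham and 283.3, 140.8 and 136.1 in PAB. The groups did not overlap, and PAB replicate 1 held about the sum of the other PAB libraries. The means were 44.5 ± 8.76 and 186.7 ± 83.7, and the log2 fold change was 1.97 ± 0.34 (SE; limma adjusted p = 0.000929). Without PAB replicate 1 it was 1.63.

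Krt7, another type II keratin of simple epithelia and of mesothelium, had 121.1, 130.0 and 173.0 normalized reads in sham and 73.5, 54.5 and 67.6 in PAB. Every PAB library lay below every sham library. The means were 141.4 ± 27.8 and 65.2 ± 9.69, a log2 fold change of -1.10 ± 0.28 (SE; limma adjusted p = 0.00419). Krt222 had 266.7, 260.0 and 281.1 in sham and 116.1, 130.9 and 137.1 in PAB, again without overlap. Its means were 269.2 ± 10.8 and 128.0 ± 10.8, with a log2 fold change of -1.07 ± 0.23 (SE; limma adjusted p = 0.00225). Krt7 ranked 282 and Krt222 ranked 288 of the 327 lower genes, so both were near the smallest change that the table holds.

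**Figure D1:**
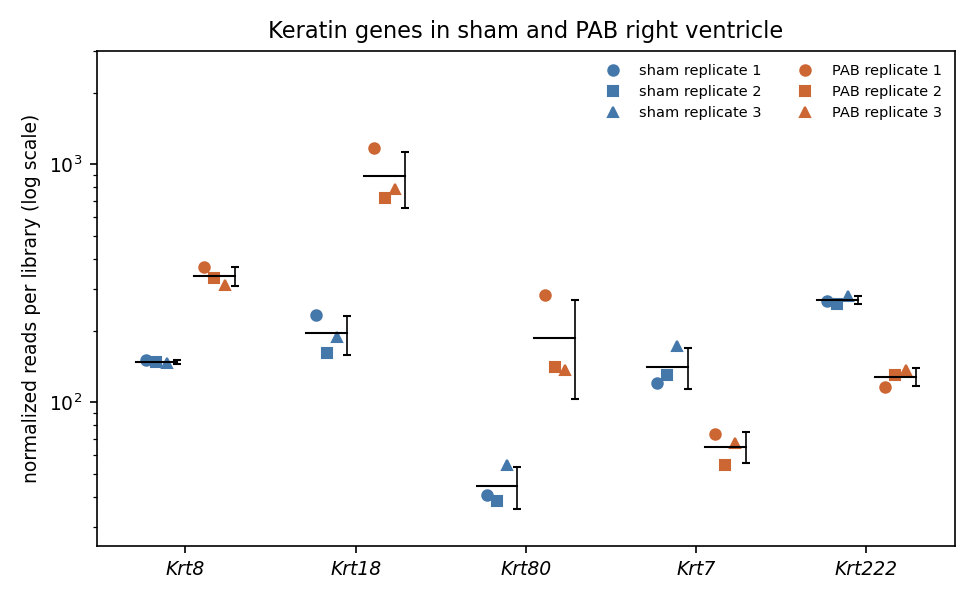
Normalized reads (log axis) of the 5 keratin genes in 3 sham (blue) and 3 PAB (orange) libraries, with the marker shape giving the replicate, the line the mean and the bar ± 1 SD. Krt8, Krt18 and Krt80 lie higher in every PAB library and Krt7 and Krt222 lower, and PAB replicate 1 stands apart for Krt80 at 283.3.

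All 5 keratins passed the unadjusted threshold of 0.05 (3 higher and 2 lower), as did 100% of the listed genes, 47% of them higher and 53% lower. The groups did not overlap for the 5 keratins, nor for 97.1% of the listed genes. The median log2 fold change was -1.03 over all listed genes, 1.45 over the higher ones and -1.45 over the lower ones. Krt18 and Krt80 were above the median of the higher genes and Krt8 below it, and Krt7 and Krt222 were closer to 0 than the median of the lower genes. Among keratins the spread over PAB libraries ran from a coefficient of variation of 8.43% in Krt222 to 44.8% in Krt80, beside a median of 34.3% over all listed genes. The SD of Krt222 was 10.8 in both groups, below the 16.2 in sham and 11.4 in PAB that counting alone gives. Its low value thus says little about the spread between libraries.

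The scale on which the libraries are set matters for the genes that were lower. When each library was rescaled to the median ratio over the listed genes, all log2 fold changes moved up by a median of 0.59, and 57.3% of the genes past the threshold were higher instead of 47%. The log2 fold changes then were 2.77 for Krt18, 2.56 for Krt80 and 1.78 for Krt8, all past the threshold in limma. Krt222 was then at -0.48 (95% interval -1.002 to 0.05, limma adjusted p = 0.079) and Krt7 at -0.51 (-1.17 to 0.15, limma adjusted p = 0.121), so neither was called. That scaling takes most listed genes as unchanged, although they were listed for a difference. The differences between keratins within a library, given next, hardly depend on it.

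**Figure D2:**
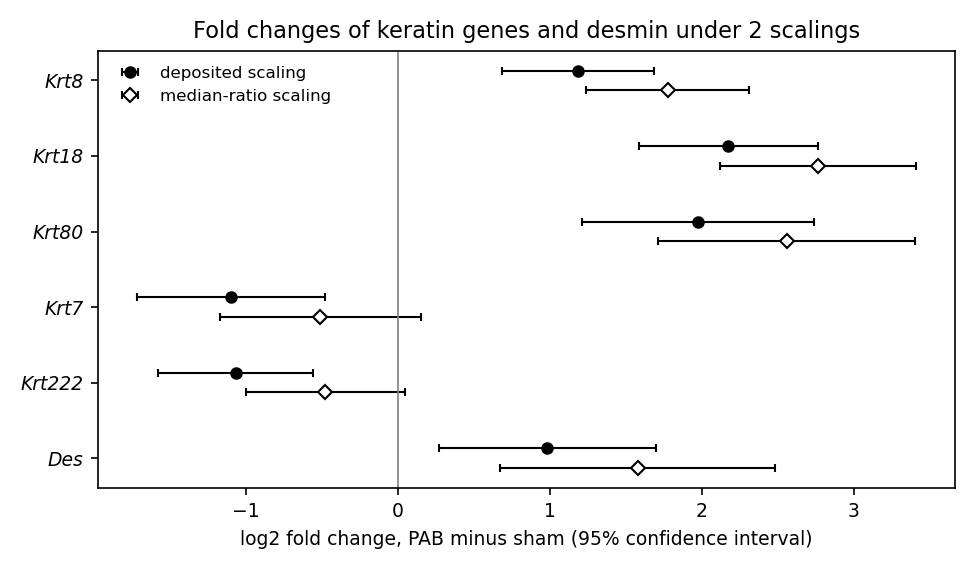
Log2 fold change, PAB minus sham, of the 5 keratins and of Des, with 95% confidence intervals from limma (n = 3 per group), as deposited (filled) and after median-ratio scaling (open). The intervals of Krt8, Krt18 and Krt80 stay above 0 under both, whereas those of Krt7 and Krt222 reach above 0 after rescaling (to 0.15 and 0.05).

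Krt8 and Krt18 together stood further above the other keratins after PAB. The mean log2(value + 1) of the pair minus that of Krt80, Krt7 and Krt222 was 0.77, 0.50 and 0.26 in the sham libraries and 2.28, 2.28 and 2.19 in the PAB libraries. The groups did not overlap, and the mean difference went from 0.51 ± 0.26 to 2.25 ± 0.06 (SD, n = 3), by 1.74. Its counting error was not computed, so the small SD in PAB says little about the spread between libraries. The other keratins did not move as 1 group. Set against Krt80 alone, the pair changed by -0.29 on this scale, and set against Krt7 and Krt222 by 2.76, both chosen after the values were seen.

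Within the pair, Krt18 changed more than Krt8. Per kilobase of gene length, a library held 2.10, 1.49 and 1.76 times as much Krt18 as Krt8 in sham and 4.28, 2.95 and 3.44 times as much in PAB. Every PAB ratio was above every sham ratio. These ratios, and the levels and shares of Krt8 below, carry the uncertainty that the pseudogene Krt8-ps brings to the Krt8 values. The mean ratio was 1.79 ± 0.31 in sham and 3.55 ± 0.67 in PAB, and on the log2 scale the ratio was higher by 0.99, with values from 0.85 to 1.12 when each library was left out in turn. Krt18 and Krt80 could not be told apart in their change, since the log2 ratio between them differed by 0.20 between the groups and its libraries overlapped. The same held for Krt222 and Krt7, with a difference of 0.03.

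**Figure D3:**
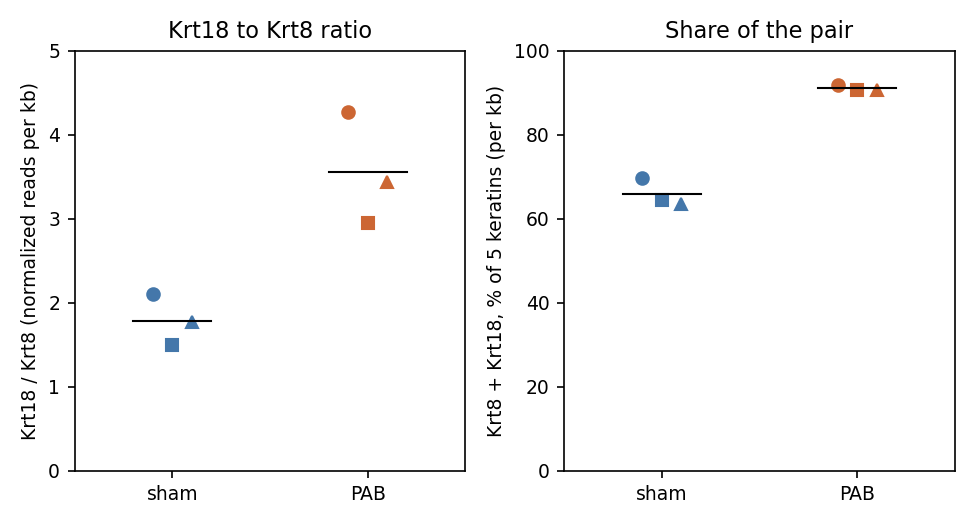
Left, ratio of Krt18 to Krt8 in normalized reads per kb, and right, Krt8 and Krt18 as a percentage of the summed level of the 5 listed keratins per kb, in sham (blue) and PAB (orange) libraries. Circles, squares and triangles are replicates 1, 2 and 3 and lines are means, which move from 1.79 to 3.55 and from 65.9% to 91.0% without overlap.

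On the level scale, in normalized reads per kb, Krt18 had the highest mean of the 5 in both groups, with 135.5 ± 25.2 in sham and 621.0 ± 167 in PAB (SD, n = 3). In sham, Krt222 (81.8 ± 3.27) and Krt8 (75.7 ± 1.44) followed closely, with ranges of 79.0 to 85.4 and 74.5 to 77.3, then Krt7 (20.1 ± 3.94) and Krt80 (6.96 ± 1.37). In PAB, Krt8 (173.3 ± 15.4) was second, followed by Krt222 (38.9 ± 3.28), Krt80 (29.2 ± 13.1) and Krt7 (9.25 ± 1.37). The libraries of Krt222 and Krt80 overlapped in PAB, so those neighbours did not differ beyond their spread. With the length of 1 coding transcript per gene in place of the whole gene, the order of the means was the same. Krt222 then reached 131.9 ± 5.28 in sham, beside 135.5 ± 25.2 for Krt18, and their libraries overlapped, so the gap between them in sham depends on the length used.

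Summed per kb, the 5 keratins went from 320.1 ± 26.7 in sham to 871.6 ± 191 in PAB. Krt8 and Krt18 made up 69.6%, 64.5% and 63.5% of that sum in the sham libraries and 91.8%, 90.6% and 90.7% in the PAB libraries. The PAB shares were close to each other although the sums differed. In normalized reads not divided by length, the share was 43.0% ± 3.93 in sham and 76.4% ± 0.069 in PAB, so the pair was the larger part of the sum in sham only per kb. Of the type II genes that were not part of the pair, Krt80 was at 0.348 ± 0.023 of the level of Krt7 in sham and at 3.11 ± 1.04 times that level in PAB, again with no overlap. The counting error of these shares and ratios was not computed, so their small SDs say little about the spread between libraries.

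The listed keratins from Krt80 to Krt18 did not all share a direction. Krt80 (higher) and Krt7 (lower, but not called after median-ratio scaling) lie close together at one end. Beyond Krt18 the nearest listed genes were lower, Igfbp6, an IGF-binding protein, with a log2 fold change of -1.01 and Itgb7, an integrin subunit, with -1.95. Further out on that side, Gm4544 (-1.82) and Gm49477 (-1.32) were lower too. On the far side of Krt80, 6030408B16Rik was at 1.06 and Slc4a8, a sodium bicarbonate transporter, at 1.32. Of the listed genes within 1 Mb of Krt222, Tcap, which caps titin in the sarcomere, was at -1.17, Mien1 at -1.15 and Ppp1r1b at -2.41. Exons share bases with an opposite-strand gene, 263 bases in Krt80 (Gm35853), 101 bases in Krt8 (Gm36026) and 77 bases in Krt7 (Gm671). The library kit named, NEBNext Ultra RNA, does not mark the strand, so reads of those stretches could come from either gene, and none of these 3 genes is in the table.

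**Figure D4:**
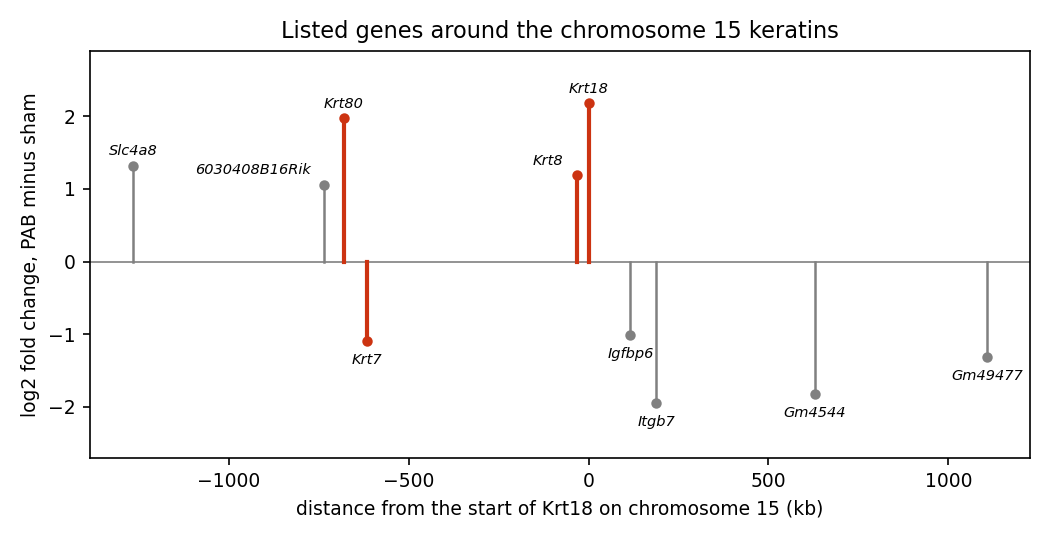
Log2 fold change, PAB minus sham, of the listed genes around the chromosome 15 keratin cluster against the distance of their start from that of Krt18 (kb), with keratins in red. Krt80 and Krt7 lie close together with opposite signs (1.97 and -1.10), while Krt8 and Krt18 share a sign.

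Which genes had profiles closest to each of the pair over the 6 libraries depended on the measure. By the distance between centred log2 profiles, the nearest to Krt8 were Tmem144 (distance 0.252), Mif (0.284), a cytokine, Cyyr1 (0.290), Endod1 (0.295) and Bcl2 (0.312), an inhibitor of cell death. These had log2 fold changes from 1.01 to 1.16. The nearest to Krt18 were Nppb (0.361), which encodes B-type natriuretic peptide, Scube2 (0.560), the lincRNA Gm39465 (0.586), the smooth muscle gene Cnn1 (0.620) and Nlrc3 (0.638). Nppb had 2802, 2235 and 2318 normalized reads in sham and 17262, 11469 and 11519 in PAB, so every PAB library stood above every sham library. Like most higher genes, Nppb, Krt18 and Krt8 were all highest in PAB replicate 1.

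The distance depends on the size of the change as well as its shape, so it partly restates the fold changes. By it, Krt80 was the 8th nearest of 616 genes to Krt18, at 0.668, whereas Krt8 ranked 105, at 1.32. Seen from Krt8, Krt18 ranked 191. Krt222 ranked 21 from Krt7. Pearson correlation over the 6 libraries ignores size, and by it the order turned, with r = 0.987 between Krt18 and Krt8 and 0.970 between Krt18 and Krt80. Nppb was then the nearest gene to both Krt8 (r = 0.996) and Krt18 (r = 0.997), and Acta1, skeletal muscle actin, was among the 5 nearest to both (0.994 and 0.991). Of the genes nearest by distance, 0 of 5 stayed for Krt8 and 1 of 5, Nppb, for Krt18. These values are a description, since all listed genes were chosen for a difference between the same groups.

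**Figure D5:**
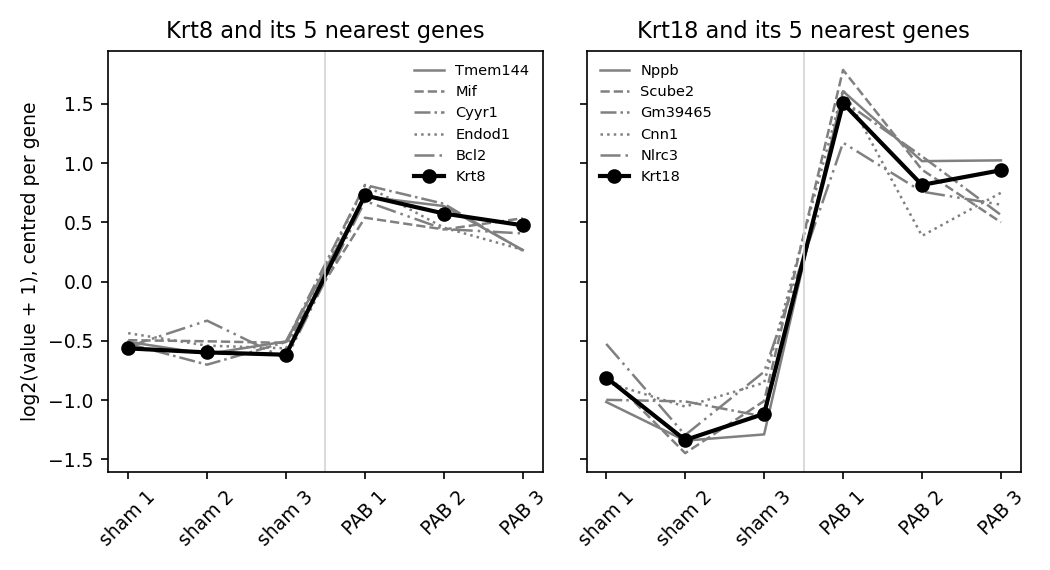
Values as log2(value + 1), centred per gene, over the 6 libraries for Krt8 (left) and Krt18 (right), each in black, with its 5 nearest listed genes in grey. The profile of Krt8 is flat within sham and that of Krt18 is not, and both are highest in PAB replicate 1.

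Few of the genes that act with keratins were in the table. What share of all genes the table holds was not computed, so these counts are no result about keratin partners. Of 19 other intermediate filament genes 1 was listed, Des, which had 18920, 19248 and 19764 normalized reads in sham and 56436, 36291 and 27147 in PAB. The PAB libraries were all higher but far apart. The means were 19310 ± 425 and 39958 ± 14985, with a log2 fold change of 0.98 ± 0.32 (SE; limma adjusted p = 0.0122), and the call was lost without sham replicate 1 (adjusted p = 0.0521) or 2 (0.0555). Set beside the 2.17 of Krt18, the 1.97 of Krt80 and the 1.19 of Krt8, the value of Des was the smallest, and the differences from it were not tested.

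Of 25 desmosome, plakin and keratin linker genes 2 were listed and both were higher in PAB. Eppk1, a plakin that binds keratin filaments, went from 21.9 ± 8.21 to 72.9 ± 8.27 (log2 fold change 1.74, limma adjusted p = 0.0019), and 679 of its bases are shared with the overlapping gene BC024139. Hspb1, a small heat shock protein that binds intermediate filaments, went from 4039 ± 348 to 10209 ± 4248 (1.26, limma adjusted p = 0.00393) and shares 630 bases with a pseudogene. Of 13 cornified envelope genes 1 was listed, Sprr1a, at 4.73, 2.81 and 2.10 in sham and 496.3, 111.1 and 60.6 in PAB, or 5, 3 and 2 reads against 466, 112 and 61. Its groups were far apart, and PAB replicate 1 was again the highest. Of 22 genes of the TNF pathway and of AP-1 and ETS factors 1 was listed, the TWEAK receptor gene Tnfrsf12a (1256 ± 134 and 2514 ± 686, log2 fold change 0.97, limma adjusted p = 0.00478). With so few members listed, the median of these lists says little beside the -1.03 of all listed genes.

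Markers of the cells in which keratins are usually found were looked up in the table. Of 15 epicardium and mesothelium markers 3 were listed, and these were Krt7, Krt8 and Krt18 themselves, which moved in opposite directions. Of the 11 markers of that list that are not keratins, 0 were listed, and so were 0 of 10 simple or lung epithelium markers and 0 of 8 epidermis markers. The levels of genes outside the table are not analysed here, so whether those markers differed between the groups was not tested.

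Listed markers of other cells went in both directions, as the keratins did. Of 15 genes of stressed cardiomyocytes 9 were listed, all 9 higher in PAB with a median log2 fold change of 1.81, among them Nppa (207.6 ± 26.6 and 12059 ± 8834, log2 fold change 5.60), Nppb (2.43), Acta1 (4.03) and Ankrd1 (1.68). Of all listed genes 100% were called, 47% of them higher, with a median of 1.45 among those, and 8 of the 9 were called without sham replicate 1 or without sham replicate 2. That list was chosen with earlier results of these data known, so its counts are a description and no independent support. The summed level of the 9 ran from 37918 to 43224 normalized reads in the sham libraries and from 133620 to 260790 in the PAB libraries. Nppa was also the 1 listed of 6 atrial markers. Of 8 cardiomyocyte markers 1 was listed, Pln, the inhibitor of the calcium pump, which was lower (-1.15) and was not called after median-ratio scaling. Of the remaining lists, 1 of 8 endothelium markers (Vwf, 1.11), 1 of 7 smooth muscle and pericyte markers (Cnn1, 1.84), 1 of 9 fibroblast markers (Dpt, -1.20), 1 of 6 Schwann and neuron markers (Dbh, -3.63) and 0 of 8 immune markers were listed. Their part in the keratin values was not tested.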

How the data were processed

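RV RNA was sequenced in 6 libraries, 3 sham and 3 PAB, with groups and replicate numbers taken from the sample titles. Per the submitters' processing notes, HISAT2 2.0.5, StringTie 1.3.3b, featureCounts 1.5.0-p3 and GATK 3.7 were used with mm10, and the authors compared the groups with DESeq2. The values in the deposited table are named FPKM by the authors, but they hold a count-based signal, in which each library's gene counts were scaled by a single size factor and gene length played no part. The design had assumed normalized values, and the same test was kept. The log2 fold changes, p-values and group means in the deposited table were computed by the authors and were not used.

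The whole table was fitted on the scale log2(value + 1) using R 4.3.3 and the trended empirical Bayes test of limma 3.58.1, two-sided. The threshold was an unadjusted p of 0.05, as in the study, and p-values were adjusted over all listed genes by Benjamini-Hochberg. A minimum mean of 0.1 removed no gene (the lowest was 8.54), and the pseudocount shrinks the fold changes of low genes. The fit was tested on simulated data. The last row of the table breaks off before its gene name and was kept by its identifier. Genes named were the keratins, the 5 nearest to Krt8 and to Krt18, listed members of the gene lists, Nppa and Nppb, while neighbouring genes on the chromosomes were named after their values were seen. The keratins and all lists were chosen with earlier results of these data known.

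Coordinates are from GENCODE M21 (GRCm38), where 616 genes were found by identifier and 597 had the same coordinates. Shared stretches of at least 100 bases at 95% identity were found with blastn 2.17.0. Promoters are from RefSeq (GRCm38.p6). Alternatives were median-ratio scaling, a pseudocount of 0.1, a stricter (minimum mean of 1) or absent filter, a fit without the trend, the replicate block and each library left out. Depth beyond the listed genes is unknown, and 3 libraries per group limit the precision. Python 3.11.15 with pandas 2.3.3, scipy 1.17.1 and matplotlib 3.10.9 was used.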

Additional observations from a re-analysis of the deposited data

How the results depend on the processing

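The 5 keratins kept their direction under every alternative run. Krt8, Krt18 and Krt80 also kept their call, whereas under median-ratio scaling Krt222 (-0.48) and Krt7 (-0.51) lost it, leaving 3 keratins past the threshold and 0 of them lower, 216 lower genes in all, and 0 cardiomyocyte markers. Leaving out each library gave log2 fold changes of 1.97 to 2.31 for Krt18, 1.63 to 2.16 for Krt80, 1.12 to 1.24 for Krt8, -1.12 to -1.001 for Krt222 and -1.20 to -0.94 for Krt7, and between 0 and 1 listed intermediate filament gene past the threshold, since Des fell short without sham replicate 1 (0.97) or 2 (0.98). The pair against the other keratins ranged from 1.62 to 1.88, but was -0.295 against Krt80 alone and 2.76 against Krt7 and Krt222. By Pearson correlation 0 and 1 of the 5 nearest genes were shared for Krt8 and Krt18.

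Same-numbered sham and PAB libraries did not deviate together (correlations of -0.0593, -0.0546 and -0.199), so the numbers were not taken as pairs. With the replicate block 616 genes passed instead of 617, and all 5 keratins did. Neither filter removed a gene. The planned count models on recovered reads were not run. The values stood near whole multiples of the step, but too few were low for a further check of the inferred reads. Where a listed gene is low, as Sprr1a in sham, counting error limits its fold change.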
